A study of Mus musculus with 3 samples.

Results

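The 35 genes described here encode the enzymes and transporters of glycolysis, the pentose phosphate pathway and glucose uptake, among 55536 mouse genes quantified in activated regulatory T cells. They were taken as a list by gene symbol, with no measured value used as a criterion, though earlier results of these data were known. All 35 symbols were found in the tables. The list holds 28 genes of glucose uptake, glycolysis, its control and lactate handling, and 7 genes of the pentose phosphate pathway. PolyA-selected RNA was sequenced from 3 libraries that the labels call technical replicates 1, 2 and 3 of 1 biological replicate. The animal was a 4 months old male with Foxp3CreERT2, which places an inducible Cre recombinase at the regulatory T cell gene Foxp3, and Rosa26YFP, a fluorescent reporter of Cre activity. The labels trace the cells to a bone marrow hematopoietic origin. The sources used here do not give the sort, any inducer or the activating stimulus. There is 1 group and no control, so the text gives levels and how far libraries differ, and compares no condition. The p-values therefore measure only the spread between these libraries, which may be technical.

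Glycolysis turns a molecule of glucose into pyruvate through a chain of cytosolic enzymes, and most of its steps can be carried out by several isoenzymes encoded by separate genes. The isoenzymes differ in tissue and in how they are controlled, so which gene a cell expresses at each step is part of its metabolic identity. Lactate dehydrogenase and the monocarboxylate transporters dispose of pyruvate as lactate. The pentose phosphate pathway branches off after hexokinase, where its oxidative arm makes NADPH and its non-oxidative arm exchanges sugar phosphates with glycolysis. Activated T cells are known for high glucose use, while regulatory T cells are usually described as relying on it less than conventional effector T cells.

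The libraries held 10981924, 9700630 and 6667391 expected counts over mouse genes in replicates 1, 2 and 3. The 6 regulatory T and T cell markers, among them Foxp3 and Il2ra, were detected in all 3 libraries, unevenly. Ctla4 was at 190.2, 250 and 612 TPM and Foxp3 at 29.5, 28.7 and 49.8 TPM, both highest in replicate 3, while Cd3e, at 1170, 1323 and 811 TPM, Cd4 and Ikzf2 were lowest there. Markers of several other blood cells were also uneven. The 4 erythroid markers summed to 451 TPM (a level per transcript, scaled to transcript length and to the library) in replicate 1, against 5.09 and 16.7 in replicates 2 and 3. The 3 plasma cell markers summed to 53.1, 9.62 and 101.0 TPM and the 5 B cell markers to 101.5, 67.4 and 83.9. Muscle and neuron markers were near 0, with Myh4 and Acta1 at 0 in every library, Ckm at 0.0400, 0.110 and 0.180 TPM, and Snap25 at 0.120, 0.0700 and 0.190 TPM.

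Of the 35 genes, 34 reached at least 1 TPM in all 3 libraries, or 97.1%, where 45.3% of all 22028 protein-coding genes did. The exception was Hk3. Their median log2(TPM + 1) was 5.79, 5.83 and 5.35 in replicates 1, 2 and 3, a mean of 5.66 ± 0.27 (SD, n = 3). Over all protein-coding genes the same median was 0.70 ± 0.07, and over the 12997 genes whose mean count reached 10 it was 3.94 ± 0.06. Together the 35 genes took 5135, 6169.7 and 4889 TPM, which is 0.540 ± 0.0680% of the transcripts in the libraries.

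**Figure D1:**
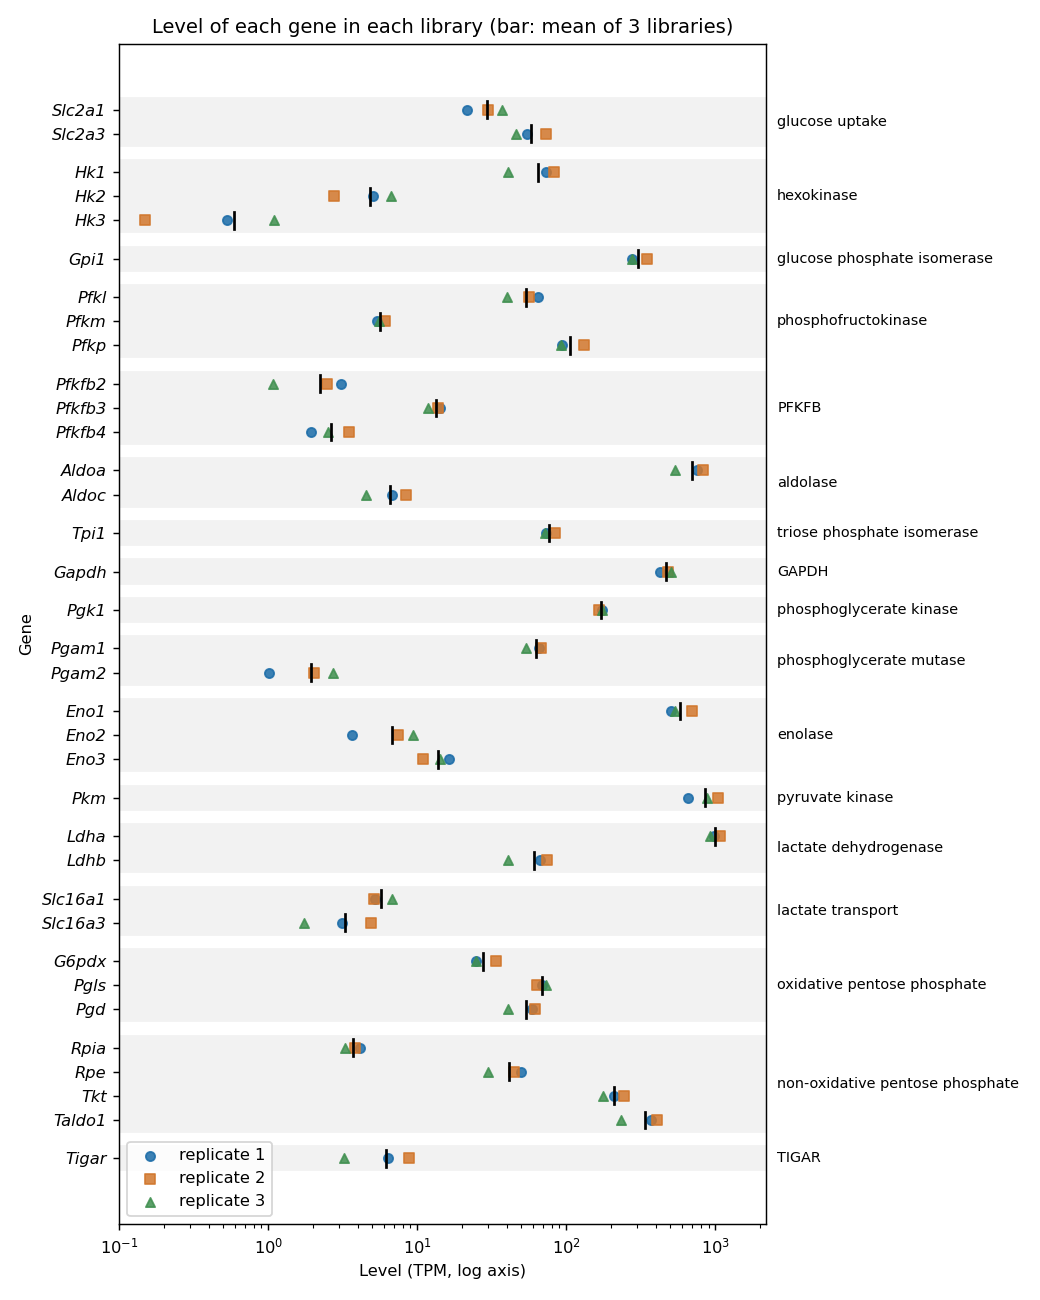
Level of each of the 35 genes in each library, in TPM on a log axis, grouped by step of the pathway; points are libraries and the short bar is the mean. Within most steps 1 gene stands far above its isoenzymes, and Ldha, with a mean of 991 TPM, is the highest of all in this main quantification.

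The levels spanned from Ldha, at 991 ± 84.0 TPM (SD, n = 3), to Hk3, at 0.593 ± 0.478 TPM. The top place depended on the quantification. In the second deposited quantification Gapdh was at 523 ± 42.0 TPM and Ldha at 514 ± 41.6 TPM. Mean TPM was at least 500 in 4 genes (Ldha, Pkm, Aldoa and Eno1), at least 100 in 10 and under 10 in 12. Ldha had rank 154 among all genes by mean TPM, and Pkm rank 179. Among the 34 pairs of neighbours in the order of mean TPM, the library ranges did not overlap in 8. Pkm overlapped with Ldha above it and with Aldoa below it, and Aldoa overlapped with Eno1. Eno1 was above Gapdh, Gapdh above Taldo1, and Gpi1 above Tkt in all 3 libraries without overlap. The lowest Eno1 value, 503.5 TPM, was barely above the highest of Gapdh, 501.9 TPM, and the order of these 2 genes depended on the quantification. Mean Eno1 and Gapdh were at 306 and 523 TPM in the second quantification. In a separate deposited gene count table scaled like TPM they were at 599 and 653 TPM. The lowest value of Aldoa, 534 TPM in replicate 3, lay under the highest of Eno1, 699 TPM in replicate 2.

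Both listed glucose transporter genes were expressed. Slc2a3, which encodes GLUT3, a high-affinity transporter (mm10 chromosome 6, 122727809 to 122801640, minus strand), was at 54.5, 72.8 and 45.8 TPM in replicates 1, 2 and 3. Slc2a1, which encodes GLUT1, the transporter best known for its induction in activated T cells (chromosome 4, 119108711 to 119137983, plus strand), was at 21.7, 29.9 and 36.8 TPM. Every value of Slc2a3 was above every value of Slc2a1, and in replicate 3 Slc2a1 was at its highest and Slc2a3 at its lowest. Slc2a3 thus held 71.5%, 70.9% and 55.5% of their summed TPM, with a mean of 66.0 ± 9.09% (SD, n = 3). Part of the Slc2a1 level was assigned to Slc2a1-204, a transcript annotated as a target of nonsense-mediated decay, at 10.3, 10.7 and 18.2 TPM. With only transcripts annotated as protein-coding, Slc2a1 was at 16.4 ± 4.34 TPM and the Slc2a3 share was 75.8%.

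The RNA of hexokinase, which traps glucose as its phosphate, was mostly Hk1. Hk1, the broadly expressed form (chromosome 10, 62268855 to 62379908, minus strand), was at 72.6, 82.3 and 40.4 TPM, lowest in replicate 3. Hk2, the form usually described as induced with growth and insulin, was at 5.04, 2.77 and 6.68 TPM, lowest in replicate 2. Hk3, known from myeloid cells, was at 0.530, 0.150 and 1.10 TPM, and its mean without replicate 3 was 0.340 TPM. Its counts were 13, 3 and 2, so its highest TPM, in replicate 3, came from the fewest counts. No library of Hk2 or Hk3 came near the lowest value of Hk1. Hk1 held 92.87%, 96.57% and 83.85% of the hexokinase TPM in replicates 1, 2 and 3, a mean of 91.1 ± 6.55% (SD, n = 3).

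Much of the Hk2 level lay outside its coding transcripts, by an amount that depended on the quantification. Hk2-202, a processed transcript of 594 bases, took 71.5%, 54.7% and 62.2% of Hk2 TPM, and the full coding transcript Hk2-201 was at 1.44, 1.26 and 2.53 TPM. In the second deposited quantification Hk2-202 took 73.3%, 22.5% and 42.7%. In a separate deposited gene count table, divided by coding bases and scaled like TPM (called the M4 level below, after its gene models), Hk2 was at 1.38 ± 0.341 TPM (SD, n = 3). That is 0.286 of its main level, where the median protein-coding gene stood at 1.32 times its main level. On that scale Hk1 held 97.7% of hexokinase.

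Gpi1, which isomerises glucose 6-phosphate (chromosome 7, 34201330 to 34230336, minus strand), was at 278, 349 and 277 TPM. Replicates 1 and 3 were nearly level and replicate 2 was higher. Its coding transcript Gpi1-201 took 44.9 ± 6.66% of this TPM (SD, n = 3), and Gpi1-207, annotated for nonsense-mediated decay, was at 116, 105 and 112 TPM. The M4 level of Gpi1 was 379 ± 69.6 TPM, or 1.26 times its main level, close to the 1.32 of the median gene.

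The RNA of phosphofructokinase, the committed step of glycolysis, was a mixture from the platelet-type and liver-type subunit genes. Pfkp, the platelet type (chromosome 13, 6579768 to 6648777, minus strand), was at 94.3, 132 and 92.0 TPM. Pfkl, the liver type, was at 65.0, 56.0 and 39.8 TPM. Pfkm, the muscle type, was at 5.34, 6.05 and 5.58 TPM. The 3 ranges did not overlap. Pfkp held 64.1 ± 5.91% of the step, Pfkl 32.5 ± 6.10% and Pfkm 3.48 ± 0.511% (SD, n = 3). The share of Pfkl TPM in transcripts not annotated as protein-coding was 21.5%, 34.0% and 56.3% in replicates 1, 2 and 3. Pfkp and the neighbouring gene Pitrm1 overlap by up to 748 exonic bases on opposite strands, and Pitrm1 was at 37.3 TPM.

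The bifunctional PFKFB enzymes, which set the level of the phosphofructokinase activator fructose 2,6-bisphosphate, were led by Pfkfb3, the form with the strongest kinase activity. Pfkfb3 was at 14.3, 13.8 and 11.8 TPM and held 73.5 ± 3.39% of the TPM of the 3 listed genes (SD, n = 3). Pfkfb1, which is not among the 35 and is named here after its values were seen, was at 7.05, 5.64 and 5.33 TPM, above Pfkfb2 and Pfkfb4 in every library, and with it included Pfkfb3 held 55.1 ± 1.55%. Pfkfb4 was at 1.95, 3.46 and 2.53 TPM and Pfkfb2 at 3.08, 2.48 and 1.08 TPM. The last 2 overlapped and are not ordered by these data. Pfkfb4 had 70.3 ± 26.5% of its TPM in transcripts without a coding annotation, and all of it in replicate 3. The M4 level of Pfkfb2 was 0.623 ± 0.245 TPM, or 0.281 of its main level, and there Pfkfb3 held 85.8%. Pfkfb2 and Yod1 overlap by up to 154 exonic bases on opposite strands, and Yod1 was at 17.4 TPM, above Pfkfb2. Tigar, a phosphatase that lowers the same activator, was at 6.41, 8.77 and 3.24 TPM.

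The RNA of aldolase, which splits the sugar into triose phosphates, was Aldoa almost alone. Aldoa (chromosome 7, 126795234 to 126800751, minus strand) was at 748, 823 and 534 TPM, and Aldoc, the form typical of brain, was at 6.72, 8.46 and 4.50 TPM. Both were lowest in replicate 3, and the Aldoa share stayed at 99.1%, 99.0% and 99.2%. Tpi1, which interconverts the trioses, was at 73.2, 84.5 and 72.2 TPM, a mean of 76.6 ± 6.85 TPM (SD, n = 3).

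**Figure D2:**
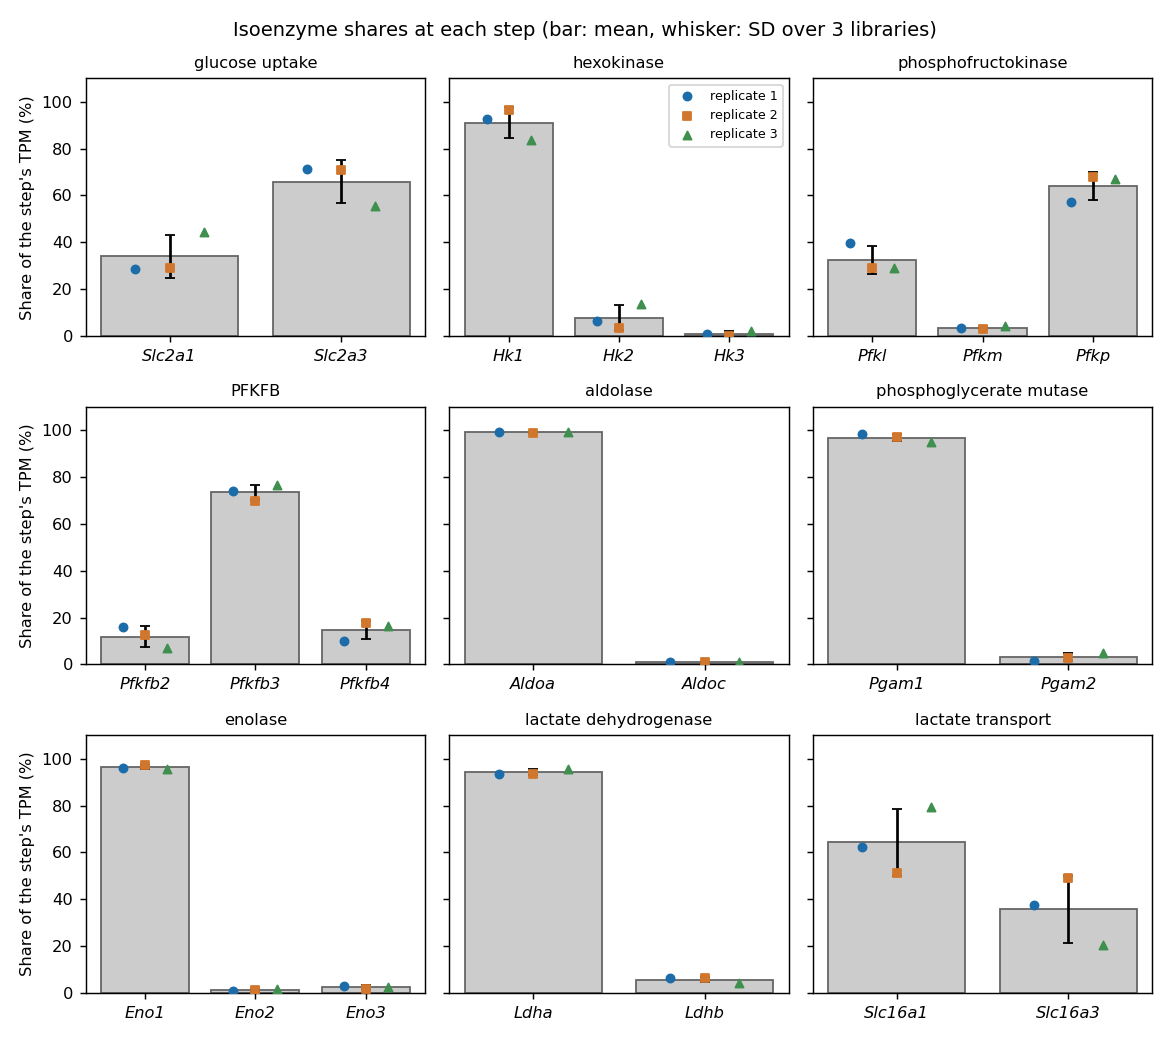
Share of each isoenzyme in the summed TPM of its step, in percent; bars are means, whiskers the SD and points the 3 libraries. One gene leads in every library at all 9 steps, with at least 90% in all libraries for aldolase, phosphoglycerate mutase, enolase and lactate dehydrogenase.

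Gapdh, which makes the first NADH of the pathway (chromosome 6, 125161715 to 125166467, minus strand), was at 424, 479 and 502 TPM. Pgk1, which makes the first ATP (chromosome X, 106187100 to 106203699, plus strand), was at 173, 166 and 175 TPM, the smallest relative spread of the genes at 1 TPM or more, with an SD of 0.0280 of the mean. Pgam1, the mutase that follows, was at 65.8, 67.8 and 53.6 TPM. Pgam2, the muscle mutase, was at 1.01, 2.04 and 2.73 TPM, from a mean count of 8.67. Pgam1 held 96.9 ± 1.67% of the mutase TPM (SD, n = 3), 90.8% in the second deposited quantification and 77.5% in M4 levels, where Pgam1 was at 24.2 ± 5.69 and Pgam2 at 7.23 ± 5.20 TPM. The order of the mutases was the same in every library of all 3 tables, while the size of the lead was not.

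Enolase was led by Eno1, the ubiquitous form (chromosome 4, 150236721 to 150248879, plus strand), at 504, 699 and 538 TPM. Eno3, the muscle form, was at 16.4, 10.9 and 14.3 TPM, and Eno2, the neuronal form, was at 3.65, 7.40 and 9.37 TPM. Eno2 stayed below Eno3 in each library without overlap of their ranges. Eno1 held 96.5 ± 0.874% of the enolase TPM (SD, n = 3).

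Several of these levels depend on how reads were divided between a gene and its copies. A sequence search of the members' transcripts against all annotated transcripts, at 95% identity or more over at least 200 bases of the same strand, found 93 copies elsewhere for 9 of the 35 genes, 77 of them for Gapdh. Eno1b, an annotated gene 99.5% identical to Eno1 over 1736 bases, was at 281, 406 and 327 TPM. Eno1 and its 3 copies together were at 929 ± 170.0 TPM (SD, n = 3), of which Eno1 took 62.5 ± 1.21% in the main quantification and 63.0 ± 0.851% in the second. The M4 table held 1 of these copies and gave Eno1 91.4 ± 0.244% of the sum. Reads of Eno1 and Eno1b cannot be assigned with confidence at that identity, so the level of either gene alone is uncertain.

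For Gapdh the sum itself moved. The 77 copies summed to 60.5 ± 7.17 TPM (SD, n = 3) in the main quantification, 11.4% of the total with Gapdh. In the second quantification they took 32.4%, with Gm7336, a processed pseudogene 99.8% identical over 1200 bases, at 164 TPM against 14.6 TPM in the main. After rescaling the second quantification over protein-coding genes, Gapdh was at 947 ± 33.3 TPM, 2.02 times its main level, where the median protein-coding gene was at 1.06 times. Gapdh was highest in replicate 3 and lowest in replicate 1 in both quantifications. The copies of Pgk1 summed to 31.0 ± 8.74 TPM and the copy of Pgam1 to 7.07 ± 3.81 TPM. The M4 level was 0.586 of the main level for Pgk1, 0.388 for Pgam1 and 1.03 times for Eno1, each under the 1.32 of the median protein-coding gene. For Gapdh it was 1.39 times, slightly above that median. Whether copies account for these differences was not tested.

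**Figure D3:**
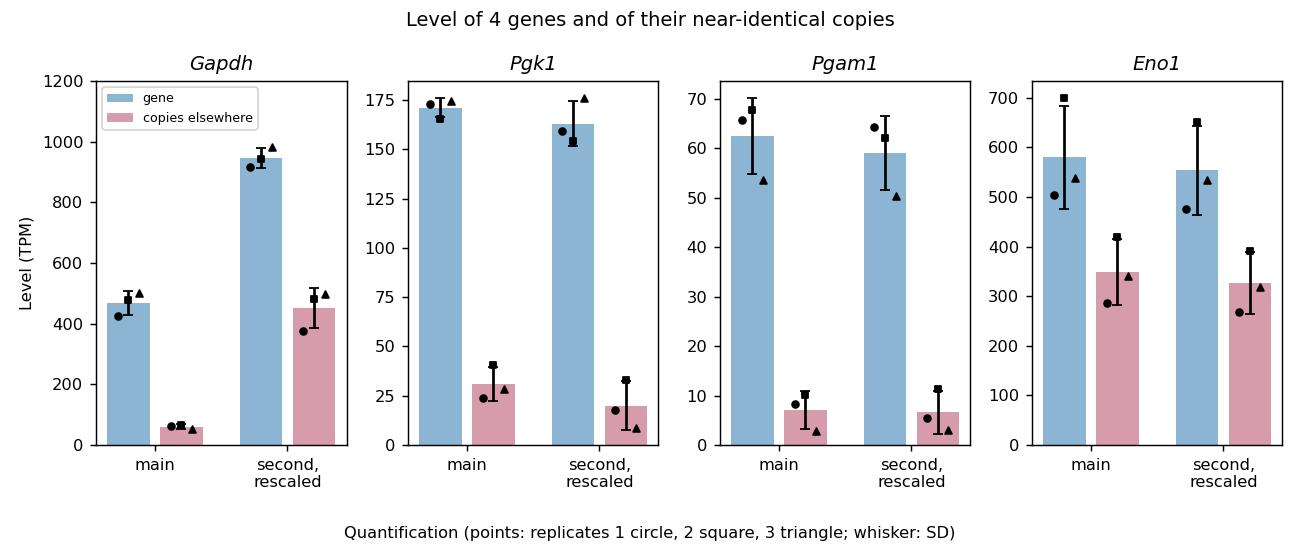
Level in TPM of Gapdh, Pgk1, Pgam1 and Eno1 and of the summed near-identical copies of each, in the main quantification and in the second after rescaling over protein-coding genes; bars are means, whiskers the SD and points the 3 libraries, and each panel has its own axis. The copies of Eno1 stand at 349 TPM in the main quantification, and Gapdh goes from 468 TPM in the main to 947 TPM in the rescaled second quantification.

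Pkm, pyruvate kinase of muscle and most other tissues (chromosome 9, 59656368 to 59679375, plus strand), makes pyruvate and the second ATP. It was at 659, 1040.1 and 874 TPM, lowest in replicate 1. The gene carries 2 exons of equal length of which a transcript takes only 1: the upstream exon gives the M1 enzyme, constitutively active and typical of muscle and brain, and the downstream exon gives the M2 enzyme, allosterically controlled and typical of proliferating cells. The 2 exons are shown because they are what makes a transcript M1 or M2. The annotated models Pkm-201 and Pkm-202 also differ at their ends, at 2432 and 2041 bases in all, so reads outside these exons can divide counts between them too. They are given 5′ to 3′ on GRCm38 (mm10), plus strand, with the M1 exon at chr9:59675029-59675195 and the M2 exon at chr9:59675568-59675734, and the capitals mark the 64 of 167 positions at which they differ.
M1 exon of Pkm-202: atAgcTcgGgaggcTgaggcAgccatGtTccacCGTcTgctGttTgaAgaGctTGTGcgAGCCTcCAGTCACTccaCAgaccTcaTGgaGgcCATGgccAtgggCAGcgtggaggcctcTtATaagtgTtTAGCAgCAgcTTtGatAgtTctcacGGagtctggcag
M2 exon of Pkm-201: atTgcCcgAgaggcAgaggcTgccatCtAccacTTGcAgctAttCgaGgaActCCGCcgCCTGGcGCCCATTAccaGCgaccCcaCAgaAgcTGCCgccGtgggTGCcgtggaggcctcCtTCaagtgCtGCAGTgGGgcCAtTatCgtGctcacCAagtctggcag

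Of the 2 forms of Pkm, the M2 form was nearly all. Pkm-201, the transcript with the M2 exon, was at 607, 923 and 827 TPM, and Pkm-202, with the M1 exon, was at 22.0, 25.2 and 4.68 TPM. Every library had the M2 transcript far above the M1 transcript, and the M1 transcript was lowest in replicate 3, although total Pkm was lowest in replicate 1. The M1 share of both forms was 3.49%, 2.66% and 0.563% by TPM, a mean of 2.24 ± 1.51% (SD, n = 3). The other 9 of the 11 annotated Pkm transcripts hold neither exon and took 4.49%, 8.84% and 4.87% of Pkm TPM, and 10.7%, 12.1% and 14.4% in the second quantification. Pkm-201 accordingly held 91.8 ± 2.95% of all Pkm TPM in the main and 85.0 ± 0.414% in the second table (SD, n = 3). Gm49759, an annotated gene on the same strand whose span holds both exons, overlaps Pkm by up to 454 exonic bases. It was at 7.45, 10.55 and 7.42 TPM, above the M1 transcript in replicate 3. How reads were divided between Gm49759 and the 2 forms was not tested.

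By expected counts the M1 transcript had 366, 347 and 47.6, against 12244, 15325 and 10168 for M2. The M1 share was 2.90% in replicate 1, with an exact (Clopper-Pearson) 95% binomial interval of 2.62% to 3.21%. It was 2.21% (1.99% to 2.46%) in replicate 2 and 0.466% (0.347% to 0.623%) in replicate 3. The 3 intervals did not overlap, but they cover counting error only and not the division of reads between transcripts that share most of their sequence. In the second quantification the shares by count were 3.61%, 2.81% and 0.977%, in the same order of libraries. The mean share without replicate 3 was 3.08% by TPM.

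**Figure D4:**
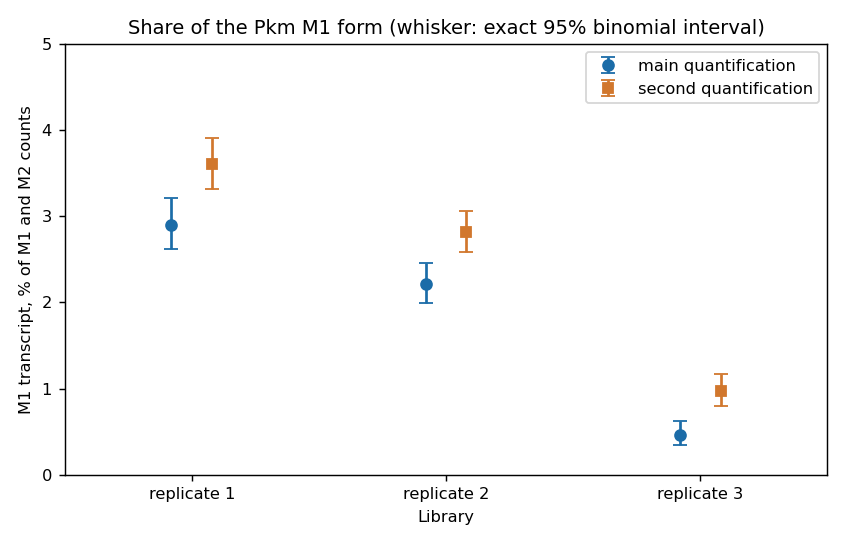
Share of the M1 transcript in the expected counts of the M1 and M2 transcripts of Pkm, in percent, by library and quantification; whiskers are exact 95% binomial intervals, which cover counting error only. The share stays under 4% in all libraries and is lowest in replicate 3, at 0.466% and 0.977%.

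Among the lactate genes, abundant enzyme RNA was paired with scarce transporter RNA. Ldha, the subunit that favours lactate formation (chromosome 7, 46841475 to 46855627, plus strand), was at 979, 1081 and 914 TPM, with an SD of 0.0850 of the mean. Ldhb, the subunit of heart and other oxidative tissues, was at 66.8, 74.6 and 40.7 TPM. Ldha held 94.3 ± 1.24% of the step (SD, n = 3). The RNA of each transporter was lower than that of either enzyme subunit. Slc16a1, which encodes MCT1, was at 5.23, 5.15 and 6.75 TPM, and Slc16a3, which encodes the export-type MCT4, was at 3.14, 4.93 and 1.75 TPM. Slc16a1 led in each library without overlap, but its share ran from 51.1% in replicate 2 to 79.4% in replicate 3, and Slc16a3 had the largest relative spread of the genes at 1 TPM or more, with an SD of 0.487 of the mean. Bsg, the chaperone that carries both transporters to the membrane, was at 113 ± 22.1 TPM.

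In the oxidative arm of the pentose phosphate pathway, G6pdx, the entry enzyme (chromosome X, 74409483 to 74429194, minus strand), was the lowest at 24.9, 33.9 and 24.6 TPM. Pgls, the lactonase of the second step, was at 68.6, 63.2 and 73.3 TPM, and Pgd, which makes the second NADPH, was at 58.7, 61.9 and 40.5 TPM. Pgls and Pgd lay above G6pdx in all libraries. The ranges of Pgls and Pgd nearly met, at 63.2 TPM for the lowest Pgls and 61.9 TPM for the highest Pgd. G6pdx and Ikbkg overlap by up to 278 exonic bases on opposite strands, and Ikbkg was at 34.2 TPM. The sources used here do not say whether the counting used strand, so reads over such an overlap cannot be told apart.

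The non-oxidative arm was higher and unequal. Taldo1, transaldolase (chromosome 7, 141392199 to 141402968, plus strand), was at 369, 405 and 234 TPM. Tkt, transketolase (chromosome 14, 30548359 to 30574720, plus strand), was at 208, 245 and 176 TPM. Both shuttle carbon units back to glycolysis, and both were lowest in replicate 3. Rpe, the epimerase, was at 49.7, 44.9 and 29.8 TPM, while Rpia, the isomerase that makes ribose 5-phosphate, was at 4.11, 3.82 and 3.26 TPM. The range of Rpia lay below those of the other 3, and the 4 genes summed to 591 ± 132 TPM (SD, n = 3) against 149.9 ± 10.5 TPM for the oxidative arm.

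Most Tkt RNA was assigned to a transcript with no coding annotation. Tkt-209, a processed transcript of 1962 bases, was at 140, 180.4 and 111 TPM, while Tkt-201, a protein-coding transcript, was at 15.0, 16.5 and 13.5 TPM. Transcripts not annotated as protein-coding took 88.9 ± 3.75% of Tkt TPM (SD, n = 3) and 86.9% in the second quantification. The M4 level of Tkt was nevertheless 271 ± 36.9 TPM, 1.29 times its main level and close to the 1.32 of the median gene. In Hk2 and Pfkfb2, by contrast, the M4 level was 0.286 and 0.281 of the main level. Of the 33 genes tested, with a mean count of 10 or more, 5 had 50% or more of their TPM in transcripts without a coding annotation (Tkt, Pfkfb4, Hk2, Eno2 and Gpi1), and 20 of the 35 had under 10%. In the second quantification 7 did, of which Tkt, Pfkfb4, Eno2 and Gpi1 were shared, Hk2 was not among them at 46.2%, and Slc2a1 (57.0%), Pfkfb3 (52.3%, against 8.70% in the main) and Rpia (52.1%) were added.

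The libraries did not hold the 35 genes at the same relative levels. On counts scaled between libraries by TMM, the median deviation of a gene from its own mean was 0.04 (log2) in replicate 1, 0.16 in replicate 2 and -0.17 in replicate 3. Over all 12997 genes tested these medians were -0.0035, -0.0126 and -0.0017. Of the 33 members tested, 26 were above their mean in replicate 2 and 23 below it in replicate 3, and 21 (63.6%) were lowest in replicate 3, where 40.7% of all genes tested were. In bulk RNA, fewer cells of a type and less RNA per cell cannot be told apart. Replicate 3 also had the fewest counts, the highest plasma cell markers, at 101.0 TPM, and the shifts in T cell markers given above, and the part of these in the deviations was not tested.

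The median deviation in replicate 3 differed between the groups of steps. From hexokinase to aldolase the median in replicate 3 was -0.29, over 8 genes tested of which 6 were lowest there. In the non-oxidative pentose arm it was -0.31, with all 4 genes lowest there. For the PFKFB genes and Tigar it was -0.37, with Pfkfb2 and Pfkfb4 at only 17 and 21 counts in replicate 3. For the 4 lactate genes it was -0.32, with 3 lowest in replicate 3, for the oxidative pentose arm -0.17, and for the 2 glucose transporters -0.04. From triose phosphate to pyruvate it was 0.03, with 2 of 8 genes lowest in replicate 3. The genes furthest below their mean in replicate 3 were Pfkfb2, at -0.80, Pfkl, at -0.73, and Hk1, at -0.65, while Hk2 was 0.55 above its mean there. Pfkfb2 rested on 61, 50 and 17 counts in replicates 1, 2 and 3, and Hk2 on 82, 54 and 83. No test compared these groups of genes.

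**Figure D5:**
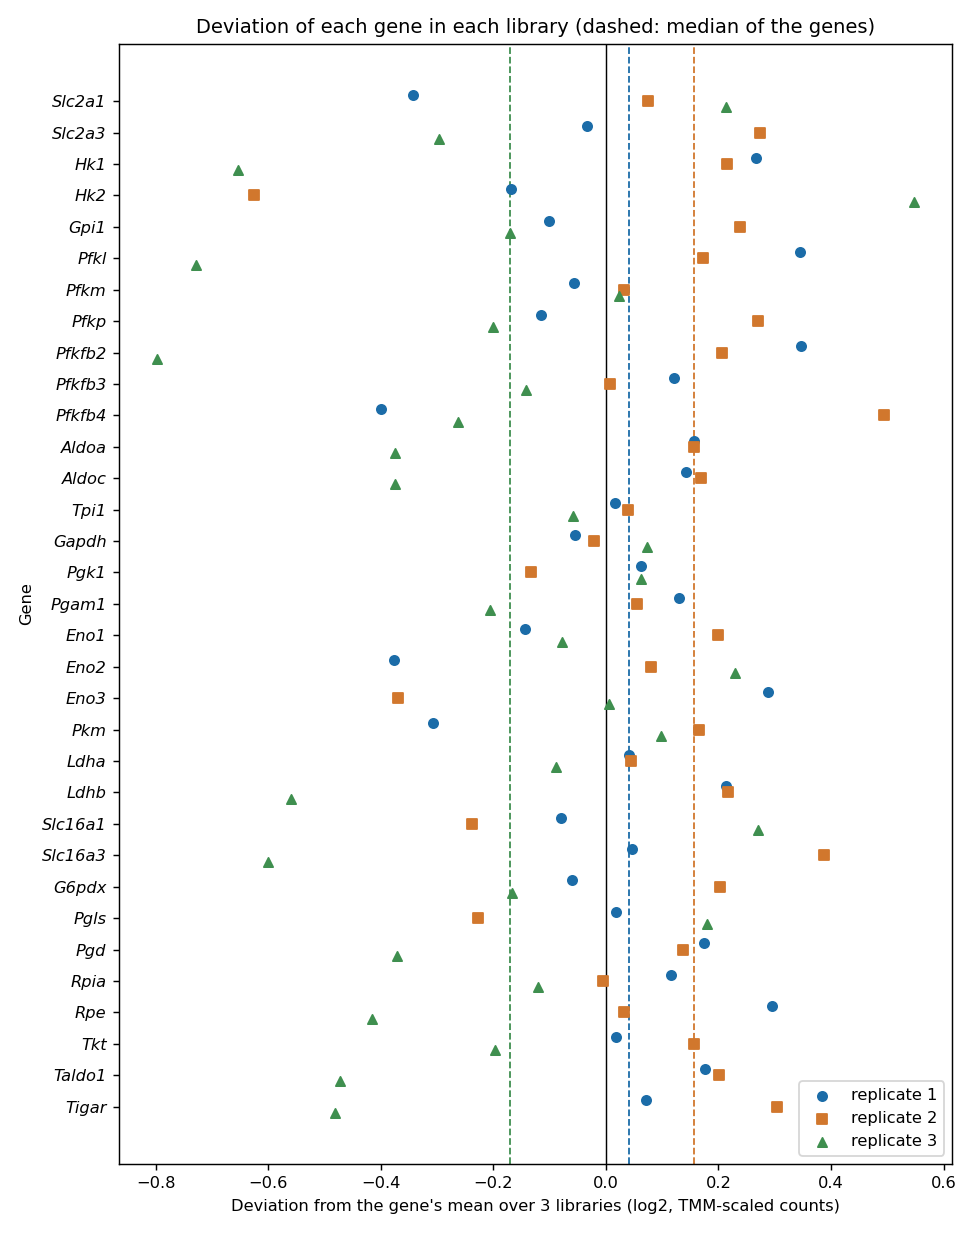
Deviation of each of the 33 tested genes from its own mean over the 3 libraries, in log2 units of TMM-scaled counts; points are libraries and dashed lines the medians of the 33 genes. Replicate 3 lies to the left for most genes, with a median of -0.17, and to the right for some, among them Slc2a1, Hk2 and Slc16a1.

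Against sampling noise alone, 27 of the 33 genes tested (81.8%) varied between libraries at an adjusted p below 0.05, where 65.3% of all genes tested did. Pkm and Aldoa were the most significant, and the 6 genes not called were Pfkm, Pfkfb3, Aldoc, Tpi1, Eno2 and Rpia. This count rests much on replicate 3, since without it 13 of 33 genes were called, where 31.9% of all genes were. The trended dispersion of edgeR adds to the noise the usual spread, between these same libraries, of genes of similar abundance. Against it 0 of 33 were called, where 1.31% of all genes tested were. In that test 0 of 33 had an unadjusted p under 0.05. The smallest unadjusted p among the members was 0.0631, for Pfkl, with an adjusted p of 1. The count was also 0 with edgeR's common dispersion, where 1.99% of all genes were called, and with DESeq2 size factors, where 1.31% were. With the tagwise dispersion no gene of the whole table was called, so that setting says nothing of the members. The variation of each of the 33 genes taken alone therefore did not pass the stricter of the 2 tests. The shared shifts above, by library and by group of steps, were not tested.

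Genes next to the pathway were taken from lists that hold other isoenzymes and known regulators. Of 19 isoenzymes and transporters outside the 35, 6 were detected, where 45.3% of all protein-coding genes were. The highest was Bpgm, the red cell enzyme of 2,3-bisphosphoglycerate, at 15.0, 23.6 and 28.3 TPM. Of the 7 tested, 4 varied beyond noise and 1 beyond the trended dispersion, where 65.3% and 1.31% of all genes tested did. That 1 was Adpgk, an ADP-dependent glucokinase, at 6.03, 7.28 and 20.6 TPM with an adjusted p of 0.0010 by edgeR's trended dispersion. Adpgk is named because it passed.

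Of 24 regulators and branch genes, 20 were detected, where 45.3% of all protein-coding genes were. Of the 21 tested, 17 varied beyond noise and 2 beyond the trended dispersion, where 65.3% and 1.31% of all genes tested did. Txnip, which restrains glucose uptake and is itself induced by glucose, was the highest of the list, at 216, 288 and 742 TPM. It was highest in replicate 3, as were 40.6% of all genes tested, with an adjusted p of 5.31e-06 by edgeR's trended dispersion. Most of the 35 genes were lowest in that library, and a link between Txnip and these genes was not tested. Mlxip, which encodes MondoA, a factor known to drive Txnip, was at 13.8, 16.7 and 34.2 TPM with an adjusted p of 0.0083 by the same test, and is likewise named because it passed. Without replicate 3 the adjusted p of Txnip, Mlxip and Adpgk was 0.999 each in that test. Without replicate 1 the adjusted p was 0.198 for Txnip, 0.476 for Mlxip and 0.229 for Adpgk, and without replicate 2 it was 0.0154, 0.284 and 0.140. The Txnip call therefore held without replicate 2 only, and the other 2 calls were lost whichever library was left out. Fbp2, a gluconeogenic enzyme, was the lowest, at 0 in all 3 libraries, and Hif1a, a factor that raises glycolytic genes, was at 51.6, 52.3 and 75.2 TPM.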

How the data were processed

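PolyA RNA-seq of 3 libraries was read from the tables the authors deposited for each library on its own. Per the file headers, the main gene and transcript tables hold expected counts and TPM on release M21 of the mouse genome mm10. The sources used here do not name the program. The second transcript table the authors deposited holds estimated counts and TPM, and was summed to genes. A further table the authors deposited holds whole-number counts per gene on release M4. These were divided by coding bases and scaled to the same sum as TPM. That they count coding sequence is an inference. In the second quantification, entries other than protein-coding genes take much of the TPM, so it was also rescaled over protein-coding genes (added after seeing the data).

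Symbols came from the transcript identifiers in the tables. Levels are deposited TPM as mean ± SD. Detection meant at least 1 TPM in all 3 libraries, and medians used log2(TPM + 1). Expected counts were rounded, and genes whose mean count reached 10 were tested with a chi-square test of 2 degrees of freedom against TMM-scaled library sizes (edgeR 4.0.16, R 4.3.3), with Benjamini-Hochberg adjustment over all genes tested. This was done with sampling noise alone and with edgeR's trended dispersion, estimated from the same libraries, added to the variance; the code was tested on simulated counts. DESeq2 1.42.0 size factors were an alternative. A count of 0 allows up to 3 counts, or 0.273, 0.309 and 0.450 CPM in replicates 1, 2 and 3, for counting error only. Copies were searched with blastn 2.17.0, and the limits of that search were chosen after seeing the data. Exon sequences were read from GRCm38.

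The members and lists were chosen with earlier results of these data known. Named are all 35 genes and, of the other lists, the highest and lowest (the lowest of the other isoenzymes is not reported here), the copies at 1 TPM or more that a result turns on, and markers. Alternatives were other scalings, filters, pseudocounts, quantifications and leaving out each library.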

Additional observations from a re-analysis of the deposited data

How the results depend on the processing

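The leading isoenzyme was the same at all 9 steps under all 8 alternatives run for it, in 72 of 72 combinations and in every library of each. Its median share over the steps was 91.1% and ran from 85.8% to 94.8%, and from 88.4% to 93.6% with a library left out. The median log2(TPM + 1) of the 35 genes, 5.66, was 4.71 in the second quantification as deposited and 5.23 with protein-coding transcripts only. The number of genes varying beyond noise, 27 of 33 where 65.3% of all genes were called, was 0 with the trended dispersion, where 1.31% were. It was 24 of 34 without replicate 1, 21 of 33 without replicate 2 and 13 of 33 without replicate 3. In these 3 settings 51.5%, 53.9% and 31.9% of all genes tested were called. The mean M1 share of Pkm, 2.24%, ran from 1.61% to 3.08% with a library left out. The median deviations kept their sign in each library under the other scalings, without a filter, in the second quantification and on deposited TPM. Of the 35 mean levels, 31 moved by more than their SD in the second quantification as deposited, 8 after its rescaling over protein-coding genes, and 28 in the M4 levels. Depth limited Hk3 and Pgam2, with mean counts of 6 and 8.67, and neither was tested. No paired analysis was possible because all libraries are 1 group.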

Other observations

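Genes that decide what becomes of pyruvate and of glucose 6-phosphate were also expressed, and those named here were chosen after their values were seen. Mpc1 and Mpc2, the 2 subunits of the carrier that takes pyruvate into mitochondria, were at 186 ± 34.5 and 51.3 ± 3.74 TPM (SD, n = 3). Of the kinases that switch off pyruvate dehydrogenase, Pdk1 was at 21.8, 32.4 and 41.6 TPM and Pdk3 at 17.9, 19.8 and 23.0 TPM, so their ranges overlapped. Pdk2 was at 4.35 ± 0.699 TPM, below both, and Pdk4, known from fasted tissues, had 1 count in replicate 1 and none in the others, which a floor of 3 counts does not separate from 0. Pgm1, which leads glucose 6-phosphate toward glycogen and sugar nucleotides, was at 26.9, 47.7 and 36.2 TPM, and the gluconeogenic gene Fbp1 was at 0, 0.310 and 0 TPM.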
